A study of Mus musculus with 6 samples.

Results

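The regions described here are binding peaks of 3 macrophage transcription factors that lie in the first intron of a gene and outside annotated repeats and CpG islands. They come from 6 peak lists, made by chromatin immunoprecipitation and sequencing (ChIP-seq) of mouse BMDMs, that is, primary macrophages differentiated from bone marrow. A peak was a member when the deposited annotation of its centre named intron 1 of a transcript and no repeat or CpG island. The rule found 18964 members among 134964 peaks, and overlapping members of the 6 lists formed 8868 distinct regions. Scores and peak calls given for a region count any peak that overlaps it, also one that is not itself a member. Marrow came from wild-type C57BL/6 mice of 8 to 12 weeks and was kept for 6 days with L929 supernatant as the source of M-CSF, the macrophage growth factor. The BMDMs stayed unstimulated (control) or received 20 ng/ml of IL-4 for 1 h. Antibodies were directed against C/EBPα, IRF8 and JUNB. Each factor and condition had 1 sample, so there are no replicates, no p-values are given, and a difference between a control and an IL-4 list cannot be told apart from a difference between 2 libraries. Intervals in brackets are 95% intervals (Wilson for shares, order statistics for medians). They cover counting error only, and peaks of the same gene are not independent.

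First introns are often the longest introns of mammalian genes and hold many enhancers of the gene they belong to. C/EBPα is a basic leucine zipper protein that drives the myeloid lineage. IRF8 directs monocyte and macrophage development and binds DNA mostly with a partner such as the ETS factor PU.1. JUNB is a subunit of AP-1, a dimer of JUN and FOS family proteins that accompanies lineage factors at macrophage enhancers. IL-4, the cytokine of alternative macrophage polarization, signals through JAK kinases to STAT6, which enters the nucleus and binds a palindrome with 4 bases between TTC and GAA. The comparison addresses how the resident factors are distributed shortly after STAT6 activation.

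The sequences below show what such peaks look like and carry the main sequence result. They are the 200 bp around the centre of the peak (RefSeq GRCm38, the assembly of mm10, plus strand), in lower case with motif matches in capitals. The motifs searched on both strands were C/EBP (TTGCNNAA), AP-1 (TGANTCA), PU.1 core (GAGGAAGT), an ETS-IRF composite (GGAA, 2 bases, GAAA), an IRF direct repeat (GAAA, 2 bases, GAAA) and a STAT6-type site (TTC, 4 bases, GAA). The PU.1 core and the ETS-IRF composite can share letters. The first set holds the strongest member of each factor that was present in both conditions, followed by the strongest JUNB member that was present in control only. A match is a description of letters and not a proven binding site.
Alpk1 (C/EBPα, both conditions, chr3:127769323-127769522): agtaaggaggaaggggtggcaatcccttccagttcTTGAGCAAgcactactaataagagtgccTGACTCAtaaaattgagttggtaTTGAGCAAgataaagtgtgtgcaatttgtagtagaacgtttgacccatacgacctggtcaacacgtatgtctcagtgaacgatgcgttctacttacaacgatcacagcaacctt
Dip2c (IRF8, both conditions, chr13:9409166-9409365): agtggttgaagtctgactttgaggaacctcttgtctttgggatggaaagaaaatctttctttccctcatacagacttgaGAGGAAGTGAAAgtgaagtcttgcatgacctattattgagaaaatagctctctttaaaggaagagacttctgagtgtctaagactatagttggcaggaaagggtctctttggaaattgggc
Nudt13 (JUNB, both conditions, chr14:20298177-20298376): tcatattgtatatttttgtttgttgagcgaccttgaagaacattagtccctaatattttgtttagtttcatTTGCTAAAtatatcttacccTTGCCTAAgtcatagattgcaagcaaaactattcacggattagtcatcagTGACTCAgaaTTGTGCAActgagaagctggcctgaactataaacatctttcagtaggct
Ergic1 (JUNB, control only, chr17:26605710-26605909): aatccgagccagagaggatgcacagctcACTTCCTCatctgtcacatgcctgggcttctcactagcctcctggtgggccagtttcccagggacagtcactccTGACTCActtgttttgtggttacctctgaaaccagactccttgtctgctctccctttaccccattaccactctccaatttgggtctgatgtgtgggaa

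In this set each window held a motif of the precipitated factor. The Alpk1 window had a pair of C/EBP matches around an AP-1 match, the Dip2c window had overlapping PU.1 core and ETS-IRF composite matches, and the Nudt13 and Ergic1 windows had an AP-1 match. The second set holds the 3 strongest members of C/EBPα and the 3 strongest of IRF8 that were called after IL-4 only.
Fam20b (C/EBPα, IL-4 only, chr1:156710888-156711087): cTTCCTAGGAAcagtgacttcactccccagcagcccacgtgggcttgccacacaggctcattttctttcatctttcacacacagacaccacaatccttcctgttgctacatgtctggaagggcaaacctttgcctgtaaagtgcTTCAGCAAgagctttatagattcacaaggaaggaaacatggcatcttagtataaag
Mll5 (C/EBPα, IL-4 only, chr5:23439957-23440156): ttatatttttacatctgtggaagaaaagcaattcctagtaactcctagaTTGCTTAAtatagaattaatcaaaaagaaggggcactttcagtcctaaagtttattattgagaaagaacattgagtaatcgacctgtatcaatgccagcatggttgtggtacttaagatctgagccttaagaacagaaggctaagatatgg
St8sia1 (C/EBPα, IL-4 only, chr6:142957520-142957719): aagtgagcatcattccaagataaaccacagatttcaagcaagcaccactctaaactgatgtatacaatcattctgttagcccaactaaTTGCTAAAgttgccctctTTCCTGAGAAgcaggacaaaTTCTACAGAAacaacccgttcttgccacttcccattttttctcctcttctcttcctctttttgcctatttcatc
Atrx (IRF8, IL-4 only, chrX:105917068-105917267): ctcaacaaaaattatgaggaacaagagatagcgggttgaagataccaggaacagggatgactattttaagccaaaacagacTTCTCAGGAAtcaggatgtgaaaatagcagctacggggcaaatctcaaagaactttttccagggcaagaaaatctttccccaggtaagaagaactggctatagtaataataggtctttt
Tmem126b (IRF8, IL-4 only, chr7:90475292-90475491): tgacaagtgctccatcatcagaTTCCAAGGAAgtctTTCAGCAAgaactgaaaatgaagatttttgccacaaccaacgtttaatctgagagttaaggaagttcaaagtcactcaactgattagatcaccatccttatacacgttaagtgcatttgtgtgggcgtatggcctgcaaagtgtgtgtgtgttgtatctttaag
Dnajc15 (IRF8, IL-4 only, chr14:77864317-77864516): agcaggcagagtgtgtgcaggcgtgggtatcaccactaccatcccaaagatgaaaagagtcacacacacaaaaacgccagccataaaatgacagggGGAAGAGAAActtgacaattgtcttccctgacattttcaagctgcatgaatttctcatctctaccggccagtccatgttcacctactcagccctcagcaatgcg

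The windows of Fam20b, St8sia1, Atrx and Tmem126b held a STAT6-type site (capitals beginning with TTC and ending with GAA), and St8sia1 held a second one. In the Mll5 window the capitals mark a C/EBP match and in the Dnajc15 window an ETS-IRF composite. Over the 9 strongest members of each kind (3 per factor), a STAT6-type site was found in 6 of those seen after IL-4 only, in 0 of those seen in control only and in 1 of those seen in both conditions, which was the JUNB peak of Cass4. These peaks were chosen by score and not by sequence, and their number is too small for more than a description.

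Members made up a like share of every list. C/EBPα had 3650 members of 24486 peaks in control, or 14.9% (14.5 to 15.4), and 3762 of 24612 after IL-4, or 15.3% (14.8 to 15.7). IRF8 had 5170 of 37525 in control, or 13.8% (13.4 to 14.1), and 5541 of 42076 after IL-4, or 13.2% (12.8 to 13.5). JUNB had 560 of 3940 in control, or 14.2% (13.2 to 15.3), and 281 of 2325 after IL-4, or 12.1% (10.8 to 13.5). The JUNB share after IL-4 lay below the other shares, but its interval met that of JUNB control and of IRF8. Peaks annotated to any intron fell into intron 1 in 34.8% (JUNB, IL-4) to 41.5% (C/EBPα, IL-4) of cases. Repeats removed between 17.8% and 20.5% of the first-intron peaks, and CpG islands removed far fewer, from 1 (JUNB, IL-4) to 309 (IRF8, IL-4).

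The label was checked against the RefSeq annotation of GRCm38.p6. The centre lay inside intron 1 of the named transcript for 18414 members (97.1%), and the others named a transcript whose model differed or was not matched. The repeat rule is read at the peak centre only, and between 50.9% (JUNB, control) and 64.2% (IRF8, control) of the 200 bp windows still held some soft-masked repeat bases. Most hosts were protein-coding transcripts, with 186 of 3650 C/EBPα control members and 41 of 560 JUNB control members in non-coding ones.

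Peak scores of members were close to those of their whole list. The deposited score has no stated unit. It ranks peaks within a list, and since depth is unknown, scores of different libraries need not be on the same scale. The median C/EBPα member score was 10.98 (10.40 to 11.41) in control and 10.82 (10.36 to 11.20) after IL-4, beside 11.20 and 11.22 over all peaks. The IRF8 median was 9.96 (9.61 to 10.37) and 10.29 (9.95 to 10.62), beside 10.34 and 9.61. The JUNB median was 7.27 (6.79 to 7.88) and 6.03 (5.46 to 6.36), beside 7.88 and 6.21. The highest member scores were 207.03 and 210.60 (C/EBPα), 256.37 and 271.82 (IRF8), and 42.94 and 37.46 (JUNB). Their median width was 265 bp in the C/EBPα and IRF8 control lists, 296 bp in the IRF8 IL-4 list and 193 bp in the JUNB IL-4 list.

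Host introns were long. The median host intron ranged from 26421 bp (C/EBPα, IL-4) to 33546 bp (JUNB, control), whereas the median over 31203 distinct RefSeq first introns was 2945 bp, of which 14.3% reached 20 kb. A longer intron offers more room for peaks, so this difference says nothing on preference. The median distance to the nearest transcription start site (TSS) was 8443 bp (7851 to 9068) for C/EBPα members in control and 7850 bp after IL-4. IRF8 members had 8440 and 8196 bp. JUNB members lay farther away, at 12087 bp (10851 to 14476) in control and 11605 bp (9970 to 14644) after IL-4. Over all peaks of a list the median ranged from 19445 bp (C/EBPα, IL-4) to 27046.5 bp (JUNB, IL-4), and peaks in later introns are farther from a start site by construction. The nearest TSS belonged to the host gene for 92.9% (JUNB, control) to 94.4% (C/EBPα, IL-4) of members. Between 7.68% and 10.4% lay upstream of the nearest TSS, which is then an alternative start downstream in the intron or another gene.

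Within the intron, C/EBPα and IRF8 members were denser in the first 10% of its length and JUNB members were not. With each intron divided into 10 equal parts, the part next to the 5′ end held 14.6% (13.5 to 15.8) of C/EBPα members in control and 14.8% (543 of 3658) after IL-4. For IRF8 it held 14.5% (13.5 to 15.5) and 16.1% (15.1 to 17.1). For JUNB it held 7.55% (5.61 to 10.1) and 6.14% (3.87 to 9.61), and an even spread would give 10%. Peaks that the deposited annotation assigns to the promoter cannot be members, which removes some of that stretch for every factor. The contrast was seen as well in introns of at least 20 kb, where the same part held 14.2% (IRF8, control) to 15.5% (IRF8, IL-4) of C/EBPα and IRF8 members against 8.17% (5.79 to 11.4) and 5.43% (2.98 to 9.71) of JUNB members. Within 5 kb of a TSS lay 38.4% to 39.9% of C/EBPα and IRF8 members, but 26.2% (22.8 to 30.0) of JUNB members in control and 24.6% (19.9 to 29.9) after IL-4. The difference between factors was not tested.

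**Figure D1:**
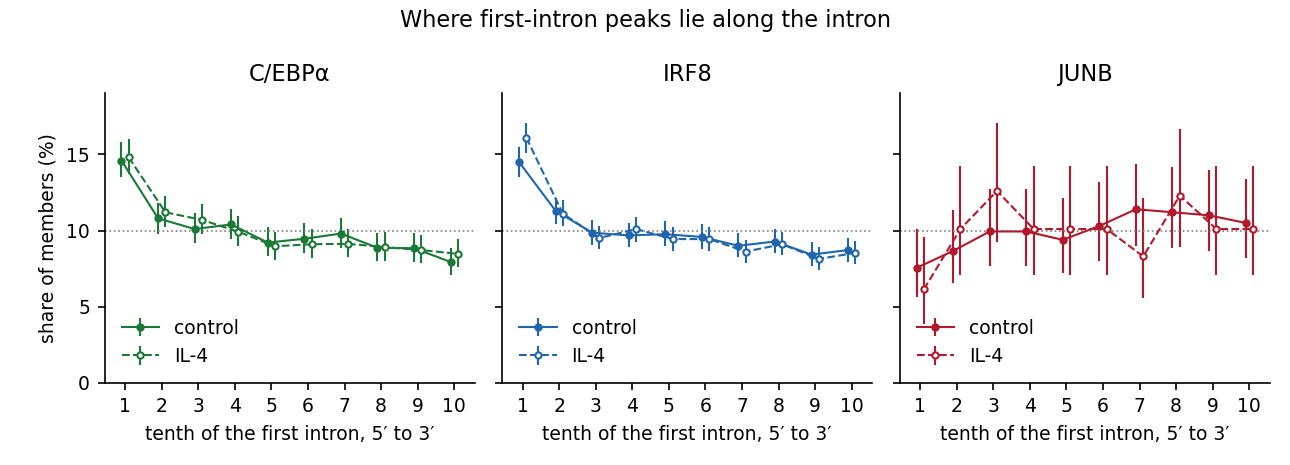
Share of members (%) in each of 10 equal parts of the first intron, from its 5′ end (1) to its 3′ end (10), for each factor in control (filled) and after IL-4 (open), with Wilson 95% bars and a dotted line at an even 10%. C/EBPα and IRF8 were highest in part 1 (14.5% to 16.1%) and JUNB was lowest there (7.55% and 6.14%).

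C/EBPα and IRF8 members close to the start site had lower scores and were less often called in both conditions, in the control as in the IL-4 lists. Among IRF8 members after IL-4, the median score was 7.69 within 1 kb of a TSS and 10.92 at 2 to 5 kb, and 60.2% and 73.2% of them overlapped a control peak. For C/EBPα after IL-4 the same comparison gave median scores of 8.21 and 11.73, and 67.8% and 78.8% overlapped a control peak. Over all IL-4 peaks 69.6% (IRF8) and 78.0% (C/EBPα) did. In control the IRF8 scores were 7.21 and 11.43, with 73.2% (69.4 to 76.7) and 80.6% (77.8 to 83.2) retained. The C/EBPα control scores were 8.43 and 11.22, with 75.6% (70.8 to 79.8) and 81.9% (78.7 to 84.8) retained, and these intervals overlap. In the JUNB control list 3 of 20 members within 1 kb overlapped an IL-4 peak, or 15.0% (5.24 to 36.0), and 24 of 87 at 2 to 5 kb did, or 27.6% (19.3 to 37.8), with intervals that overlap. From 2 kb outwards the IRF8 share after IL-4 stayed between 73.2% and 75.6%. Score moves with distance here, and its part in the difference was not tested.

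**Figure D2:**
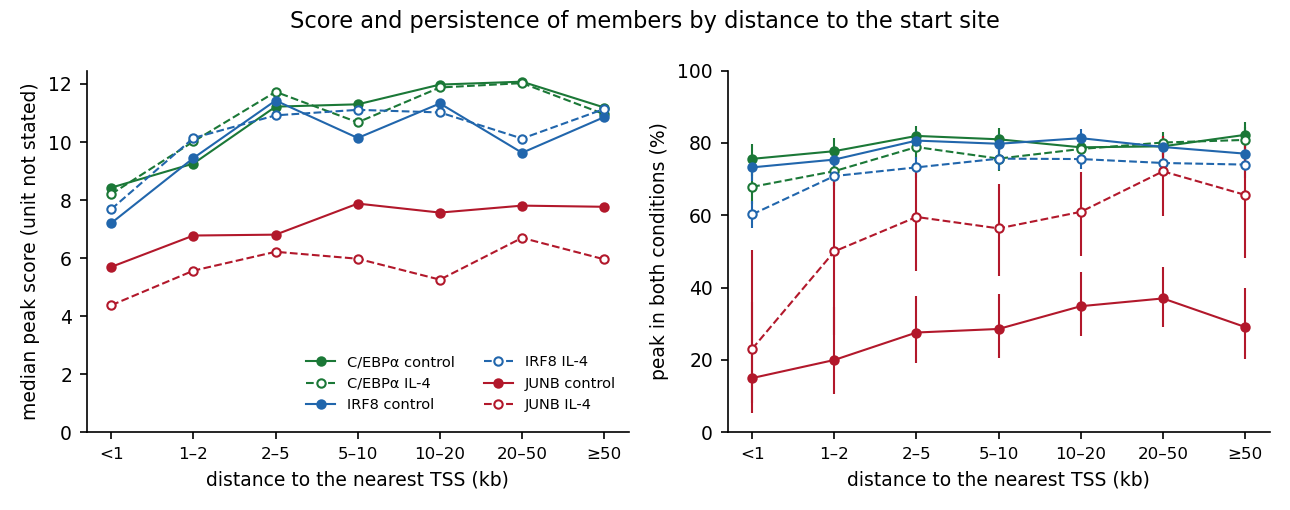
Members by distance to the nearest TSS (kb) in each list, with control filled and solid and IL-4 open and dashed. Left, median peak score. Right, share (%) of members that overlap a peak of the same factor in the other condition, with Wilson 95% bars. Members within 1 kb had the lowest median score in every list, and JUNB control members were the least often retained at every distance.

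The next comparison asked which members changed with IL-4. A control member was called lost when no IL-4 peak of the same factor overlapped it by at least 1 bp, and an IL-4 member was called gained when no control peak did. These words refer to peak calls, and they do not say that binding was absent in the other condition. For C/EBPα, 744 of 3650 control members were lost (20.4%, with 21.4% lost over all C/EBPα peaks), and 878 of 3762 IL-4 members were gained (23.3%, with 22.0% over all). For IRF8, 1112 of 5170 were lost (21.5%, with 21.4% over all), and 1528 of 5541 were gained (27.6%, with 30.4% over all). C/EBPα and IRF8 members were thus lost and gained at rates near those of their lists. For JUNB, 389 of 560 were lost (69.5%, with 64.2% over all) and 111 of 281 were gained (39.5%, with 39.2% over all). The share of JUNB control members retained was 30.5% (26.9 to 34.5), below the 35.8% (34.3 to 37.3) over all JUNB peaks, with intervals that just met. When the longer list of a factor was cut to its strongest peaks so that both had equal length, 42.1% of JUNB control members were retained, and with scores of at least 10 in both lists 13.5% of 163 were. List length and the score minimum move with this result, and their part was not tested.

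**Figure D3:**
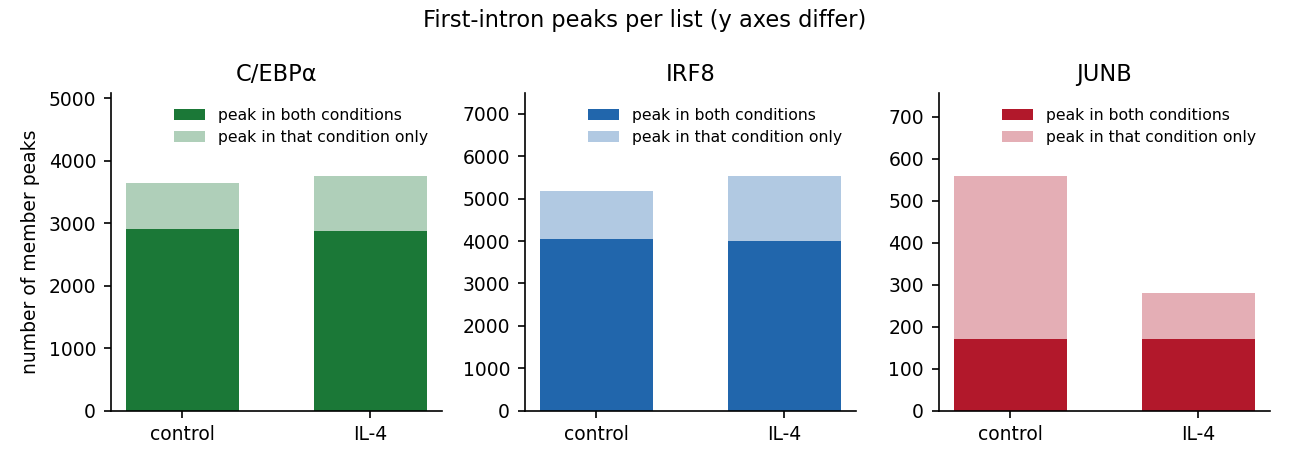
Number of member peaks in the control and IL-4 list of each factor, split into peaks called in both conditions (dark) and in that condition only (light). The y axes start at 0 and differ between factors. The bars of C/EBPα and IRF8 are of like height in both conditions, and the JUNB bars stand at 560 and 281.

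Retention followed the score. Control peaks of each list were divided by score into 4 classes of equal size. In the lowest class 50.8% (47.7 to 54.0) of C/EBPα members, 49.2% (46.5 to 51.9) of IRF8 members and 16.3% (11.4 to 22.6) of JUNB members were retained, beside 47.8%, 49.3% and 17.3% of all peaks in that class. In the highest class the shares were 100% of 880 members, 99.8% of 1268 and 64.3% (55.3 to 72.5) of 115, beside 99.9% of all IRF8 and 65.6% of all JUNB peaks in that class. In the class below the highest, JUNB kept 29.0% (21.9 to 37.3) of its members and 36.8% of all its peaks. Gained members were weak, with median scores of 5.80 (C/EBPα), 5.38 (IRF8) and 5.25 (JUNB).

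At members called in both conditions, the score was compared peak by peak. The median log2 ratio of IL-4 over control was 0.02 (-0.01 to 0.05) for 2884 C/EBPα pairs, 0.10 (0.08 to 0.13) for 4017 IRF8 pairs and -0.66 (-0.80 to -0.45) for 171 JUNB pairs, beside 0.00, 0.08 and -0.54 over all paired peaks. A score at least 2-fold higher was seen at 232 C/EBPα members (8.04%, 7.72% over all), 480 IRF8 members (11.9%, 11.3% over all) and 7 JUNB members (4.09%, 2.99% over all). A score at least 2-fold lower was seen at 176 C/EBPα members (6.10%, 6.56% over all), 296 IRF8 members (7.37%, 7.96% over all) and 57 JUNB members (33.3%, 29.9% over all). Members were therefore near the background of their list in each direction. Dividing by the median score of each list changed the IRF8 value to 0.21 and the JUNB value to -0.31. A lower score can stem from fewer cells with the factor bound, from less binding per cell or from a difference between libraries. These data cannot tell them apart.

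The STAT6-type site was more frequent in gained than in lost members. It was present in 5.92% of 1053588 tiles of 200 bp laid over the RefSeq first introns. Tiles with a soft-masked repeat base at the centre, or with unknown bases, were left out. Among C/EBPα members it was found in 21.0% (18.4 to 23.8) of 878 gained, 7.09% (6.21 to 8.08) of shared and 3.23% (2.18 to 4.75) of 744 lost peaks. Among IRF8 members the shares were 13.8% (12.2 to 15.6) of 1528 gained, 7.42% (6.65 to 8.26) of shared and 4.14% (3.12 to 5.47) of 1112 lost peaks. JUNB had 15.3% (9.79 to 23.2) of 111 gained, 8.77% (5.39 to 14.0) of shared and 7.20% (5.03 to 10.2) of 389 lost peaks, with intervals of gained and lost that just met. For C/EBPα and IRF8 the intervals of gained, shared and lost members were apart, and lost members lay below the tiles.

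The score change at shared members went the same way. A STAT6-type site was held by 24.6% (19.5 to 30.5) of the 232 C/EBPα members whose score was at least 2-fold higher after IL-4, by 5.86% (145 of 2476) of those within 2-fold, and by 2 of the 176 whose score was at least 2-fold lower, or 1.14% (0.312 to 4.05). For IRF8 the shares were 14.6% (70 of 480), 6.70% (5.89 to 7.61) and 4.05% (2.33 to 6.95). Later introns gave like values. In later introns outside repeats, 21.1% (18.7 to 23.6) of gained and 3.17% (2.33 to 4.31) of lost C/EBPα peaks held the site, and over all C/EBPα peaks the values were 20.1% and 3.43%. For IRF8, gained peaks of later introns held it in 13.9% (12.6 to 15.3) of cases and lost ones in 3.73% (2.91 to 4.76).

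**Figure D4:**
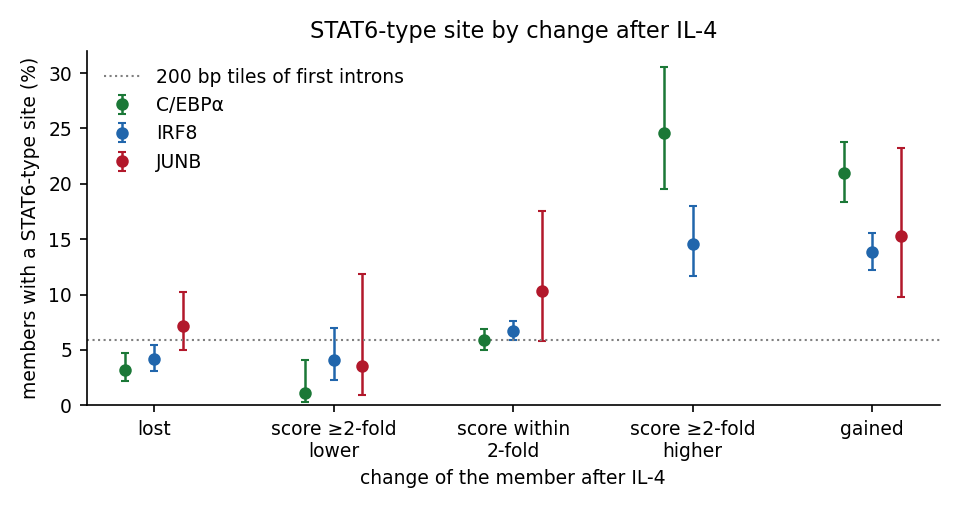
Share (%) of members with a STAT6-type site in the 200 bp around the peak centre, by the change of the member after IL-4, for each factor with Wilson 95% bars. The dotted line marks 200 bp tiles of first introns (5.92%), and the JUNB class with a score at least 2-fold higher is left out because it held 7 members. The C/EBPα share goes from 1.14% at members with a score at least 2-fold lower to 24.6% at those at least 2-fold higher.

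The site was most frequent where both C/EBPα and IRF8 appeared. Of 104 regions that gained both factors, 45 held a STAT6-type site at their centre, or 43.3% (34.2 to 52.9). The share was 17.1% (13.1 to 21.9) of 281 regions that gained C/EBPα on a retained IRF8 peak, and 13.9% (10.2 to 18.6) of 259 that gained IRF8 on a retained C/EBPα peak. It was 16.8% (13.7 to 20.5) of 464 regions that gained C/EBPα with no IRF8 peak and 11.9% (10.1 to 13.9) of 1117 that gained IRF8 with no C/EBPα peak. Regions that kept both factors had it in 7.81% (6.62 to 9.19) of 1677 cases, and regions that lost both in 3 of 54. Among the 45 regions, chosen after their values were seen, were one in Ppp2r3a (30.07 for C/EBPα and 29.70 for IRF8 after IL-4), a phosphatase subunit, one in Nfkb1 (35.91 and 12.28), one in Il1r1, the interleukin-1 receptor (9.42 and 9.36), and one in Ncoa3, a nuclear receptor coactivator (13.44 and 8.96).

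The shares were also computed with other settings chosen after the data were seen. With TTC and GAA 3 bases apart, the spacing that other STAT proteins prefer, the site was found in 10.8% (8.93 to 13.0) of gained, 7.26% of shared and 5.24% (3.86 to 7.09) of lost C/EBPα members, so the contrast was smaller than with 4 bases. With 1 member per host gene the C/EBPα values were 21.4%, 6.42% and 3.26%. Restricting every list to scores of at least 10 gave 25.6% of gained C/EBPα and 18.5% of gained IRF8 members.

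Members held the motif of their own factor more often than the tiles did. The C/EBP motif was found in 34.4% (32.9 to 36.0) of C/EBPα members in control and 33.9% (32.4 to 35.4) after IL-4, beside 9.19% of first-intron tiles. The AP-1 motif was found in 54.8% (50.7 to 58.9) and 57.3% (51.5 to 62.9) of JUNB members, beside 6.49% of tiles. For IRF8 the ETS-IRF composite was found in 13.7% (12.8 to 14.7) and 13.3% (12.4 to 14.2), beside 1.96%, the PU.1 core in 13.2% and 12.5%, beside 1.21%, and the IRF direct repeat in 9.48% and 9.69%, beside 2.75%. C/EBPα members held an AP-1 motif in 17.1% and 15.8% of cases, and JUNB members held a C/EBP motif in 17.9% of control cases and in 45 of 281 after IL-4. Windows of members had a median GC content between 45.5% and 47.0%. For the tiles only the mean was computed, which was 43.5%. Later-intron peaks held the C/EBP motif in 33.7% and 32.9% of C/EBPα peaks and AP-1 in 59.9% and 54.9% of JUNB peaks. They held the ETS-IRF composite in 15.3% (14.5 to 16.1) of IRF8 peaks in control and 14.4% (13.7 to 15.2) after IL-4, and over all IRF8 peaks the shares were 15.0% (14.6 to 15.3) and 13.9% (13.5 to 14.2).

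Motif content differed with distance from the start site. Within 2 kb of a TSS, 9.55% (7.71 to 11.8) of C/EBPα control members held an AP-1 motif, against 19.2% (17.8 to 20.7) of those farther away. For IRF8 control members the motif was found in 116 of 1157 near members and in 15.3% (14.2 to 16.4) of the others. The C/EBP motif went the other way in C/EBPα control members, with 39.0% (35.7 to 42.4) near and 33.2% (31.5 to 34.9) far. JUNB members, few of which lie near a start site, held AP-1 in 51.7% (39.3 to 63.8) of 60 near and 55.2% (50.8 to 59.5) of 500 far peaks, a difference that is not detectable with these numbers.

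Retained JUNB members held AP-1 letters somewhat more often than lost ones, with intervals that met. The motif was found in 62.0% (54.5 to 68.9) of 171 shared and 51.7% (46.7 to 56.6) of 389 lost members, and in 50.5% (41.3 to 59.6) of gained ones. Over all JUNB peaks the shares were 58.0%, 53.8% and 40.1%. Among shared JUNB members with a score at least 2-fold lower after IL-4, 43 of 57 held it. Both the motif and retention go with the score (AP-1 was found in 68.7% of JUNB control members with a score of at least 10), and the part of the score was not tested.

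Co-binding was examined within each condition. C/EBPα members overlapped an IRF8 peak in 54.8% (53.2 to 56.5) of cases in control and 57.1% (55.5 to 58.6) after IL-4, below the 58.1% (57.5 to 58.7) and 60.6% (60.0 to 61.2) over all C/EBPα peaks. IRF8 members overlapped a C/EBPα peak in 38.9% (37.6 to 40.3) and 38.7% (37.4 to 40.0), beside 37.9% and 35.3% over all IRF8 peaks. Most JUNB members overlapped the other factors, as did JUNB peaks in general. The overlap was with C/EBPα in 73.9% (70.1 to 77.4) and 72.6% (67.1 to 77.5) and with IRF8 in 80.2% (76.7 to 83.3) and 82.2% (77.3 to 86.2) of cases, beside 72.3% and 73.4% and 80.8% and 82.6% over all JUNB peaks. Members with more partners had higher scores and were more often kept. C/EBPα control members alone had a median score of 8.57 and 70.1% (67.8 to 72.3) were retained. With 1 other factor the values were 13.27 and 85.8% (84.1 to 87.4), and with both 22.08 and 92.6% (89.4 to 94.8). JUNB control members alone were retained in 9.68% (4.51 to 19.5) of 62 cases and those with both others in 38.1% (33.2 to 43.2) of 365. Over all control peaks 78.6% (C/EBPα) and 35.8% (JUNB) were retained, but the split by partners was made for members only. Retention also goes with the score, and the part of the score was not tested. C/EBPα control members alone lay at a median of 6425 bp from the start site and those with both others at 13870 bp. JUNB control members had the same order, with 8737 bp alone and 13996 bp with both. After IL-4 the JUNB order was the other way, with 16165 bp for only 33 members alone and 11492 bp with both. No intervals were computed for these distances.

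Over the 8868 regions, the most frequent pattern was IRF8 alone in both conditions (2110 regions, 23.8%), followed by C/EBPα with IRF8 in both (1273, 14.4%) and IRF8 only after IL-4 (1100, 12.4%). Among regions with all 3 factors in control that kept C/EBPα and IRF8, JUNB was lost from 222 and kept in 132. Over all 600 regions with JUNB in control, 414 lost it (69.0%). Peaks of all 6 lists met in 132 regions (1.49%). Ranked by their lowest score percentile over the 6 lists, the first of them lay in Gm5535, at 930 bp from the nearest TSS, where the scores in control and IL-4 were 62.65 and 52.62 (C/EBPα), 133.64 and 145.20 (IRF8), and 26.03 and 12.04 (JUNB). The next, in Smap2, an Arf GTPase-activating protein gene, had 37.23 and 103.43 (C/EBPα), 99.16 and 131.17 (IRF8), and 15.14 and 13.60 (JUNB). In Cass4, a gene of the CAS adaptor family, they were 29.97 and 35.81, 45.62 and 63.06, and 35.01 and 16.63. Arhgap25 and Pgs1 completed the 5 regions. In all 5 the JUNB score was lower after IL-4, and the IRF8 score was higher. Over all paired members the score was higher after IL-4 at 24.0% for JUNB and at 56.8% for IRF8. The 5 regions were picked by score, and scores of different libraries need not be on the same scale.

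The strongest shared members of each factor were picked by their control score, so their scores after IL-4 are a description only. For C/EBPα, strong shared members lay in Alpk1, an innate kinase that senses a bacterial sugar (207.03 in control and 205.58 after IL-4), and in the serine protease gene Htra1 (205.58 and 210.60). For IRF8 the strongest lay in Dip2c (256.37 and 264.24), Lyn, a SRC family kinase (252.97 and 252.96), and Ctsb, which encodes cathepsin B (251.59 and 249.81). The scores of these 5 peaks were close in both conditions. The strongest shared JUNB members had lower scores after IL-4, with 42.94 and 18.03 in Nudt13, 38.89 and 6.19 in Ston2, and 35.01 and 16.63 in Cass4. Over all paired JUNB members the score was higher after IL-4 at 24.0%.

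The 3 strongest gained members scored above the 3 strongest lost ones for C/EBPα and IRF8. Over all gained and lost members the median scores were 5.80 and 5.61 (C/EBPα), 5.38 and 5.20 (IRF8), and 5.25 and 6.64 (JUNB). Gained scores come from the IL-4 list and lost ones from the control list, and these need not be on the same scale. The strongest gained C/EBPα members were in Fam20b, a xylose kinase gene of proteoglycan synthesis (68.81), Mll5 (59.09) and St8sia1, a ganglioside synthase gene (50.69), while the strongest lost ones were in the actin-associated gene Palld (22.80), Pfkfb3, a regulator of glycolysis (18.66), and Rap1gap2 (18.46). For IRF8 the gained ones were in the chromatin remodeller gene Atrx (101.02), Tmem126b (35.96) and Dnajc15 (35.03), and the lost ones in Klhl6 (26.19), Gucd1 (25.92) and Slc16a10 (21.78). Among the strongest peaks JUNB went the other way. Its strongest lost members, in Ergic1 (24.47), Dfna5, which encodes gasdermin E (21.72), and Mr1, an MHC class I-like gene (21.36), scored above the strongest gained ones in 4930432J09Rik (12.25), the tetraspanin gene Cd53 (11.50) and Ank (11.37). The AP-1 motif was present in the windows of all 3 lost JUNB peaks and of the gained ones in Cd53 and Ank.

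Members were spread over 4309 host genes. Of these, 2542 (59.0%) held 1 region, 371 held 5 or more and 63 held 10 or more. The 371 genes held 2810 regions, or 31.7% of all. The most regions were found in Cadm1, a cell adhesion gene (24 regions in an intron of 257465 bp), Elmo1, whose product activates RAC with DOCK proteins (21 regions in alternative first introns), Ppp3ca, the catalytic subunit of calcineurin (20), and Mitf, a transcription factor of osteoclasts and melanocytes (19). They were followed by Asap1 with 19, by Fmnl2, Cmip, Gm14005, Maml3 and Tnfaip8 with 17 each, and by Dock4 and Sik3 with 16 each. Per 10 kb of intron these genes ranged from 0.69 regions in Maml3 to 2.22 in Elmo1, with 0.93 in Cadm1 and 1.58 in Ppp3ca. The Elmo1 value uses the length of 1 of its first introns (94582 bp). The part of intron length in the order by number was not tested.

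**Figure D5:**
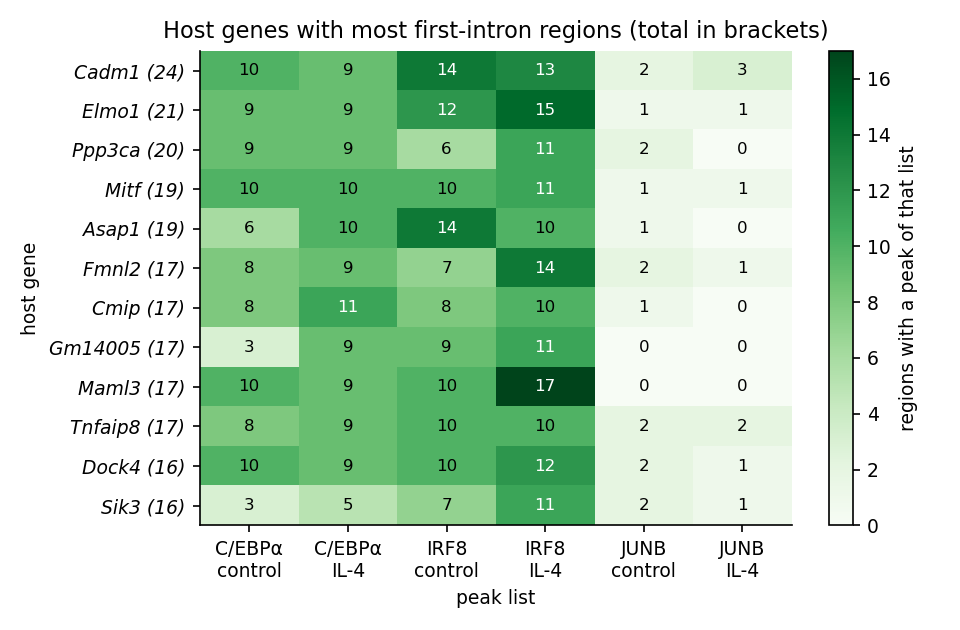
Number of first-intron regions with a peak of each list in the 12 host genes that had most regions (total in brackets). Colour and digits give the same count. Maml3 had 10 IRF8 regions in control and 17 after IL-4, Gm14005 had 3 C/EBPα regions in control and 9 after IL-4, and JUNB had between 0 and 3 in every gene. Over all member regions, 26.2% of IRF8 and 22.3% of C/EBPα regions after IL-4 were gained.

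Within these genes the lists changed unevenly. In Maml3, a Notch coactivator gene, all 10 IRF8 regions were kept and 7 were added, of which the strongest scored 11.87, and C/EBPα had 10 and 9. In Fmnl2, a formin that builds actin filaments, IRF8 went from 7 to 14 regions, and in Ppp3ca from 6 to 11. In Asap1 it went from 14 to 10. Over all member regions, 26.2% of those with IRF8 after IL-4 were gained and 20.4% of those with IRF8 in control were lost. The C/EBPα shares were 22.3% and 19.5%. The whole IRF8 list was longer after IL-4 (42076 against 37525 peaks), and no gene was tested against these shares. Gm14005 held strong changes. At chr2:128342183-128342625 the C/EBPα score was 19.80 after IL-4 with no control peak, the IRF8 score went from 17.88 to 79.07, and the window held a STAT6-type site. At chr2:128414438-128415082 both factors were gained, with 39.38 for C/EBPα and 26.93 for IRF8, with no STAT6-type site at the centre.

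In Mitf the strongest peak of C/EBPα and of IRF8 was called in both conditions. The region at chr6:97857704-97858140 scored 170.72 in control and 198.49 after IL-4 for IRF8, and that at chr6:97826651-97827044 scored 59.00 and 58.31 for C/EBPα. A C/EBPα peak of 24.86 was gained at chr6:97820942-97821159 and lay close to a retained one (18.61 and 19.46). The only JUNB peak in control (8.99) was lost and another (5.08) was gained.

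Gene lists were also read for regions in first introns. Myeloid kinases, phosphatases and adaptors had a member in 19 of 26 genes (80 regions), cholesterol and lipid genes in 14 of 21 (39 regions) and NCoR and histone deacetylase corepressors in 9 of 15 (27 regions). Macrophage lineage factors and receptors had one in 12 of 25 (56 regions), pattern recognition and inflammation genes in 17 of 36 (35 regions) and genes of IL-4 signalling and alternative activation in 10 of 30 (26 regions). The lists were compiled with results of these data known, intron length differs between their genes, and the order was not tested. Over all 8868 regions, 19.5% of those with C/EBPα in control were lost and 22.3% of those with C/EBPα after IL-4 were gained. The shares were 20.4% and 26.2% for IRF8, and 69.0% and 39.2% for JUNB. The lists hold few regions each, and no difference from these shares was tested.

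Genes of IL-4 signalling and alternative activation lost 3 of 13 C/EBPα control regions and gained 6 of 16 after IL-4 (19.5% and 22.3% over all regions). IRF8 lost 3 of 12 and gained 3 of 12 (20.4% and 26.2% over all). Mrc1, which encodes the mannose receptor CD206, held 4 C/EBPα regions and none of IRF8 or JUNB. Of these, 3 were gained, at 239 bp (10.77), 1942 bp (8.86) and 2499 bp (3.88) from the TSS, and the fourth, at 8318 bp, was lost (7.95). In Il4ra, the receptor of IL-4, the region at 3425 bp was kept by both factors, with 48.23 and 31.90 for C/EBPα and 49.07 and 64.20 for IRF8, and C/EBPα gained a peak of 8.45 at 9316 bp.

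Pparg, a lipid-sensing nuclear receptor of alternatively polarized macrophages, held 5 regions. The strongest, at chr6:115375179-115375830, was bound by all factors in both conditions (C/EBPα 34.78 and 35.88, IRF8 129.96 and 140.80, JUNB 5.46 and 7.07). At 2 of the other regions the C/EBPα score was higher after IL-4, 15.24 against 7.91 and 19.65 against 7.48, and 1 of the 5 C/EBPα control regions was lost. In Jak1, the kinase that couples the receptor to STAT6, IRF8 had 4 regions in control and 6 after IL-4, with 1 lost and 3 gained. The lost one was the strongest IRF8 peak in control (19.30 at chr4:101217255-101217514), and the other 8 regions of the gene scored at most 14.85. No region of Mrc1, Il4ra, Pparg or Jak1 held a STAT6-type site at the centre.

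Among pattern recognition and inflammation genes, C/EBPα lost 1 of 17 regions and gained 4 of 20 (19.5% and 22.3% over all), IRF8 lost 2 of 24 and gained 3 of 25 (20.4% and 26.2%), and JUNB lost 2 of 3 and gained 2 of 3. Nfkb1, which encodes the p50 subunit of NF-κB, gained both factors at chr3:135688951-135689316 (35.91 for C/EBPα and 12.28 for IRF8), 2414 bp from its TSS, where the window held a STAT6-type site. It also gained IRF8 at 8032 bp (10.13), and IRF8 at 851 bp went from 4.39 to 17.06. In Rel, another NF-κB subunit, the C/EBPα score at 2960 bp went from 14.33 to 30.37. In Smad3, a mediator of TGF-β signals, C/EBPα scores were 90.98 and 88.31 in the strongest of 8 regions, and the only JUNB peak (8.16) was lost.

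Lipid genes lost 3 of 20 C/EBPα regions and gained 4 of 21 (19.5% and 22.3% over all), and IRF8 lost 5 of 21 and gained 7 of 23 (20.4% and 26.2%). Cd36, a scavenger receptor for lipids, held 11 regions over its alternative first introns. At chr5:17879905-17880340 the C/EBPα score went from 68.14 to 103.77, that of IRF8 from 14.47 to 24.92 and that of JUNB from 18.10 to 11.63. At chr5:17857273-17857696 C/EBPα went from 42.81 to 55.59 and JUNB from 3.74 to 9.31, while IRF8 went from 21.52 to 6.58, and this window held a STAT6-type site. In Abca1, the cholesterol exporter, the region at 4349 bp kept IRF8 at a lower score (79.97 and 52.84) and lost its JUNB peak (7.91), while C/EBPα was kept with low scores (4.22 and 3.48).

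Lineage genes lost 7 of 35 C/EBPα regions and gained 4 of 32 (19.5% and 22.3% over all), and IRF8 lost 9 of 37 and gained 6 of 34 (20.4% and 26.2%). Fli1, an ETS factor, held 13 regions. Its strongest IRF8 region scored 156.66 and 185.38, and its C/EBPα region at 1870 bp scored 70.82 and 45.52, but 5 of its IRF8 regions were lost and 1 was gained, as 23.13 at chr9:32508741-32509197. Tfec, a macrophage relative of Mitf, lost and gained no C/EBPα or IRF8 region. At chr6:16883947-16884166 C/EBPα went from 37.65 to 64.01 and IRF8 from 10.47 to 25.72 over a STAT6-type site. The highest score of a Tfec member was 46.91, so the peak of 64.01 overlaps this region without being a member. At chr6:16889362-16889867 C/EBPα went from 24.27 to 46.91 while JUNB (5.90) was lost. Another Tfec region gained a JUNB peak (6.21).

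Kinases, phosphatases and adaptors lost 9 of 41 C/EBPα regions and gained 8 of 40 (19.5% and 22.3% over all), and IRF8 lost 6 of 54 and gained 10 of 58 (20.4% and 26.2%). Ptprj, a receptor tyrosine phosphatase, held 15 regions, 4 with JUNB in control and 1 after IL-4, and gained an IRF8 peak of 19.84 over a STAT6-type site. Corepressor genes lost 1 of 10 C/EBPα regions and gained 3 of 12 (19.5% and 22.3% over all). For IRF8 they lost 1 of 11, kept 10 and gained 7 of 17 (20.4% and 26.2% over all). Of these IRF8 gains, 4 were in Tbl1xr1, a subunit of the NCoR complex, with scores between 4.24 and 10.50.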

How the data were processed

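Chromatin of 6 BMDM samples (C/EBPα, IRF8 and JUNB, each in control and after 1 h of IL-4) was fixed with DSG and formaldehyde and analysed by ChIP-seq. Per the submitters' processing notes and the study's methods, the authors used BWA 0.7.10, SAMtools 0.1.19, MACS2 2.0.10 and HOMER 4.2 with mm10, called peaks per sample and removed blacklisted regions. The deposited score column has no stated unit. Either of 2 library kits was used and the kit of each sample is not given. Read numbers are not given in the sources used here, so the depth is unknown, and no read counts enter any value. The deposited start, end and distance to the TSS are in bp, with 1 bp uncertainty in the start.

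Members were found from the deposited annotation. Peaks overlapping by at least 1 bp were called shared, and pairs were made one to one, largest overlap first. Host introns came from RefSeq GRCm38.p6, and symbols from the files (4362 transcripts), the RefSeq table (50) or the nearest gene (6). No peak ended past its chromosome (0 peaks). Motifs were searched in 200 bp around the peak midpoint, since the files hold no summits. Groups have 1 sample, so no test was run. Some items that the naming rule selects are not reported here. Members, gene lists and comparisons were chosen with earlier results of these data known. Genes were named by rule, namely the 12 with most regions, the 3 strongest shared, lost and gained members per factor, the 5 best-ranked regions of all 6 lists and up to 4 genes per gene list with most regions. Alternatives changed the score minimum (10), the overlap (50% of both peaks), list length, members per gene, window (100 bp), score scaling, distance and chromosomes. Python 3.11.15, pandas 2.3.3, numpy 2.4.6, scipy 1.17.1, pysam 0.24.0, samtools 1.23.1 and matplotlib 3.10.9 were used. Scripts were tested on simulated data, with overlaps compared with bedtools 2.31.1.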

Additional observations from a re-analysis of the deposited data

Results flagged for a closer look

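The number of IRF8 members after IL-4 was 1.07 times that in control, and the number of JUNB members was 0.502 times. IRF8 increased in number while JUNB decreased, which drew attention to them. The median log2 score ratio at shared members was likewise 0.10 for IRF8 and -0.66 for JUNB. With 1 sample per factor and condition, the difference between the factors was not tested. Over all peaks the numbers changed 1.12-fold for IRF8 and 0.590-fold for JUNB.

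Among the first-intron peaks that the rule removed, those of IRF8 on CpG islands numbered 309 after IL-4 and 153 in control. These peaks take part in no comparison above. The C/EBPα numbers were 58 and 63.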

How the results depend on the processing

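No paired analysis was possible because each factor and condition had 1 sample and no result comes from a test. Of 141 values under other settings, 63 lay within the 95% interval of the reported value and 78 outside it. The median IRF8 score ratio stayed above 0 and the JUNB ratio below 0 under the 3 alternatives run for each. The alternatives for the STAT6-type site were chosen after seeing the data. Leaving out chromosome X, members within 2000 bp of a TSS, or members whose nearest TSS is of another gene moved none of 18 values. Scores and lists depend on a sequencing depth that is unknown.

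With scores of at least 10 in every list, the member share was 14.8% for C/EBPα and 13.7% for IRF8 after IL-4, and 12.3% and 8.03% for JUNB in control and after IL-4. Control members were retained in 81.6% (C/EBPα), 82.4% (IRF8) and 13.5% (JUNB) of cases, and IL-4 members were shared in 79.3% (C/EBPα) and 75.0% (IRF8). The JUNB median log2 score ratio was -0.36, with an interval that reached 0 (-0.86 to 0.00, 22 pairs). C/EBPα members overlapped IRF8 in 42.3% and 43.2%, JUNB members overlapped C/EBPα in 60.7% (control) and IRF8 in 71.2% and 88.6%. The own motif was held by 39.6% and 39.6% of C/EBPα, 19.4% and 18.2% of IRF8 and 68.7% and 71.4% of JUNB members. The median distance was 9210 and 8677 bp for C/EBPα, and 9336 and 8938 bp for IRF8. STAT6-type sites were in 25.6% of gained C/EBPα, 18.5% of gained IRF8 and 30.8%, 18.2% and 4.26% of gained, shared and lost JUNB members.

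With an overlap of 50% of both peaks, retention was 75.0%, 69.5% and 26.8% for C/EBPα, IRF8 and JUNB, and IL-4 members were shared in 72.4%, 64.8% and 52.3%. C/EBPα members then overlapped IRF8 in 41.4% (control) and 42.7% (IL-4), and JUNB members overlapped C/EBPα in 51.4% and 47.0% and IRF8 in 52.9% and 43.4%. With lists of equal length, JUNB control had 13.0% members, retention was 75.5% for IRF8 and 42.1% for JUNB, IL-4 members were shared in 76.4% and 44.5%, JUNB overlapped IRF8 in 85.8% in control and C/EBPα overlapped IRF8 in 54.5% after IL-4.

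With 1 member per host gene, retention was 83.8% (C/EBPα) and 82.7% (IRF8), IL-4 members were shared in 80.9% and 76.2%, the IRF8 log2 ratio was 0.07, and the median distance was 5075 and 4777 bp (C/EBPα) and 4834 and 4536 bp (IRF8). Scores divided by the list median gave log2 ratios of 0.21 (IRF8) and -0.31 (JUNB). In windows of 100 bp the own motif was held by 25.9% and 25.2% (C/EBPα), 10.2% and 9.57% (IRF8), and 44.6% and 43.1% (JUNB). There the STAT6-type site was in 3.61%, 2.02% and 11.6% of shared, lost and gained C/EBPα members, 3.62%, 2.16% and 8.44% for IRF8, and 4.09%, 4.11% and 9.01% for JUNB. With 3 bases between TTC and GAA, the values that moved were 5.24% of lost and 10.8% of gained C/EBPα members and 10.1% of gained IRF8 members. Other causes of these shifts than the settings themselves were not tested.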
